A study of Homo sapiens with 2 samples.

Results

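The mitochondrial carrier family SLC25 was examined in Huh7 cells, an established line from a human hepatocellular carcinoma, grown in high or low glucose medium. Its members were taken from the 48 entries, among 25343 in all, whose gene symbol is SLC25A followed only by a number, and 47 of these 48 enter the counts. No measured value enters this symbol rule. Both media were DMEM-based cultures with 10% fetal bovine serum, seeded at 500000 cells per well and treated for 6 days. They differed in glucose, 4.5 g/L (high glucose) against 0.45 g/L (low glucose), and in both, live cells only were carried over whenever the dishes became crowded. One medium is 1 library, so there is no replicate error, no test between media and no p-value below. Each value compares 2 libraries of 1 cell line.

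SLC25 proteins sit, with few exceptions, in the inner membrane of mitochondria and move metabolites, nucleotides, cofactors and ions between the matrix and the cytosol. They share a fold of repeated elements, each marked by a short conserved signature at the end of its first membrane helix. In liver cells the family serves ATP export, the malate-aspartate shuttle, the urea cycle, fatty acid oxidation and heme synthesis.

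Expression is given in TPM, the share of a library that each gene holds once transcript length is allowed for, scaled to a total of 1000000. Levels of different genes can therefore be set side by side. The number of reads is unknown, so no counting interval is given. Differences are log2(TPM + 1) in low glucose minus log2(TPM + 1) in high glucose, a scale that understates differences of low genes. A gene was compared when its mean over both libraries was at least 1 TPM, which held for 13745 genes and for 38 of the 47 carriers. The label was checked against defining genes: 6 of 6 hepatocyte genes, albumin among them, ranged from 211 to 20859 TPM in high glucose and from 154 to 16441 TPM in low glucose. Each of the 6 was lower in low glucose, and their sum was 37259 TPM with high and 30288 TPM with low glucose. Of 14 markers of other cells, 7 were under 1 TPM in both libraries, among them PTPRC of leukocytes (0.83 and 0.50 TPM), CDH5 of endothelium (0.74 and 0.89 TPM) and HBB of red cells (0 in both). Others were well above that level: SOX9 (99.27 and 66.5 TPM) and KRT19 (39.1 and 37.4 TPM) of bile duct cells, COL1A2 of fibroblasts (18.7 and 24.6 TPM) and CD68 of macrophages (20.4 and 39.3 TPM). Summed, the 14 gave 183 TPM with high and 178 TPM with low glucose, and their part in the differences was not tested. The family was well represented, with SLC25A5 (ADP/ATP), SLC25A13 (aspartate/glutamate) and SLC25A20 (carnitine) all between 52.03 and 471 TPM.

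The total of the carrier family was nearly equal in the 2 media, and a few members differed. Summed TPM of the 47 members was 2626 in high and 2606 in low glucose (0.263% and 0.261% of all TPM). The pyrimidine nucleotide carrier SLC25A36 was the only member past 2-fold on the higher side, and no member was 2-fold lower. The calcium-regulated ATP-Mg/phosphate carriers lay on opposite sides, with SLC25A25 at least 1.5-fold higher and SLC25A23 at least 1.5-fold lower. SLC25A20, which brings acylcarnitines into mitochondria for fatty acid oxidation, was at least 1.5-fold lower, while the most abundant carriers of phosphate and ADP/ATP were nearly level.

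The 1 member at least 2-fold higher is 2.63% of the 38 compared, beside 3.65% of all genes compared. At least 2-fold lower were 0 members, beside 1.10% of all genes. At 1.5-fold, 4 members (10.5%) were higher, namely SLC25A36, SLC25A25, SLC25A18 and SLC25A29, beside 13.0% of all genes. The 2 members (5.26%) at least 1.5-fold lower were SLC25A23 and SLC25A20, beside 6.07% of all genes. These shares lie near or below those of all genes, so the counts do not set the family apart. Of the 38 differences 20 lay above 0 and 18 below, with a median of 0.02 and 25th and 75th percentiles of -0.19 and 0.28. The corresponding values over all genes were 0.05, -0.23 and 0.35. Within 0.2 of 0 lay 17 members (44.7%), against 36.0% of all genes.

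**Figure D1:**
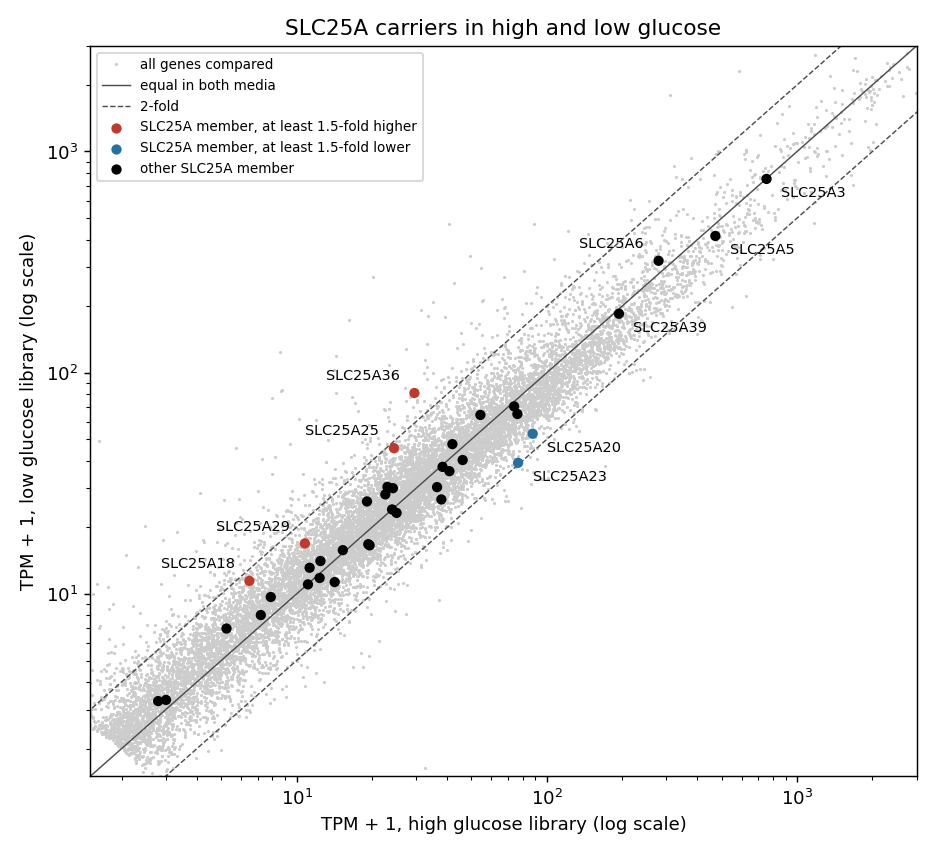
TPM + 1 of each gene in the high glucose library (horizontal, log scale) and the low glucose library (vertical, log scale), with 38 SLC25A carriers as large points over all compared genes in grey, and lines for equality and 2-fold. SLC25A36 is the carrier above the upper 2-fold line (28.6 and 80.0 TPM), and SLC25A23 lies just inside the lower one (75.8 and 38.2 TPM).

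Among the substrate groups, the summed TPM of the 2 pyrimidine nucleotide carriers differed most, and this lay mainly in SLC25A36. SLC25A36 (hg19, chromosome 3, 140660662 to 140698785), which exchanges cytosine and uracil nucleotides, gave 28.6 TPM with high and 80.0 TPM with low glucose. The TPM ratio was 2.80 and the difference 1.45, which was exceeded by 1.09% of the genes compared. Its paralog SLC25A33, which also carries pyrimidine nucleotides and was first described as insulin-responsive, stood at 41.0 and 46.6 TPM (0.18). SLC25A33 was thus the higher of the pair in high glucose and SLC25A36 in low glucose. The share of SLC25A36 in their sum was 41.1% and 63.2%, and the sum itself 69.5 and 127 TPM. No other entry shares the interval of SLC25A36. The difference of SLC25A36 stayed past 2-fold under every scaling and pseudocount tried (1.34 to 1.48).

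The ATP-Mg/phosphate carriers adjust the adenine nucleotide content of the matrix. SLC25A23, SLC25A24 and SLC25A25 bind calcium through an amino-terminal domain. SLC25A25 (chromosome 9, 130830479 to 130871537) gave 23.5 TPM with high and 44.6 TPM with low glucose, a difference of 0.90. SLC25A23 (chromosome 19, 6440075 to 6459781) stood at 75.8 and 38.2 TPM, a difference of -0.97, with 1.21% of all compared genes lower. It is the largest negative difference among the 38 carriers. SLC25A23 fell just short of 2-fold as reported and passed it with median-of-ratios scaling (-1.06) and with upper-quartile scaling (-1.01). SLC25A24 stood at 24.1 and 22.3 TPM (-0.11), and SLC25A41 was listed at 0 and at 0.20 TPM. Within this group SLC25A23 held 61.4% of TPM with high and 36.3% with low glucose, while SLC25A25 held 19.04% and 42.4%. The leading paralog therefore differed between the media, whereas the sum of the group was 123 and 105 TPM.

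The coding sequences show how far such paralogs differ at matching places. The following stretches of 36 bases, from the coding sequences of GENCODE release 29, centre on a carrier signature. Its 6 codons are in capitals: proline, any residue, aspartate or glutamate, any pair of residues, then lysine or arginine. They are shown for the pyrimidine, ATP-Mg/phosphate and ADP/ATP carriers, because reads of paralogs can be told apart only where their sequences differ.
SLC25A36: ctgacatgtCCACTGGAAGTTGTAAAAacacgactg
SLC25A33: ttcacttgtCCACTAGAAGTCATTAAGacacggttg
SLC25A23: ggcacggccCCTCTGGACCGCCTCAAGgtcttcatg
SLC25A24: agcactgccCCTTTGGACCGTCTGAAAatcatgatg
SLC25A25: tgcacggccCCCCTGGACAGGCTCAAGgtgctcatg
SLC25A4: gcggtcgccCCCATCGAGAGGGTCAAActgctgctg
SLC25A5: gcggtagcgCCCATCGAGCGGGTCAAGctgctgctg
SLC25A6: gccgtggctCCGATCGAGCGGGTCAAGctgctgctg
SLC25A36 (codons 26 to 31) and SLC25A33 (codons 31 to 36) differed at 10 of these 36 bases. SLC25A23 (codons 205 to 210) differed from SLC25A25 (codons 206 to 211) at 6 and from SLC25A24 (codons 214 to 219) at 9. The ADP/ATP carriers (codons 28 to 33 in each) were closer, with 4 differing bases between SLC25A5 and SLC25A6, 4 between SLC25A4 and SLC25A5 and 6 between SLC25A4 and SLC25A6. Over the whole aligned coding sequence identity was 64.9% for SLC25A33 with SLC25A36, 70.6% for SLC25A23 with SLC25A25 and 78.7% for SLC25A5 with SLC25A6. None of the coding stretches of 50 bases in 45 of the 47 members occurred in a coding transcript of another member. The exceptions were SLC25A51 and SLC25A52 (97.6% identity), which shared 35.7% of the stretches of SLC25A51.

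The ADP/ATP carriers, which export ATP made by oxidative phosphorylation, were abundant, with nearly equal sums (764 and 749 TPM). SLC25A5 (ANT2, the form of dividing cells; chromosome X, 118602363 to 118605359) gave 471 TPM with high and 414 TPM with low glucose (-0.18). SLC25A6 (ANT3, broadly expressed) stood at 279 and 319.6 TPM (0.20), and SLC25A4 (ANT1, the form of heart and muscle) at 14.3 and 14.8 TPM (0.04). SLC25A5 led in both libraries, with 61.6% and 55.3% of the group, followed by SLC25A6 with 36.5% and 42.7%. SLC25A31, the testis form, was at 0.05 and 0 TPM. GENCODE names 9 pseudogenes for SLC25A5 and 6 for SLC25A6, copies that can share reads with the parent genes. It also names pseudogenes for other members, among them 5 for SLC25A15 and 1 each for SLC25A36, SLC25A20 and SLC25A18. The part of pseudogenes in the values of any member was not tested. The interval listed for SLC25A6 (chromosome X, 1455045 to 1511039) also overlaps that listed for ASMTL (21.01 and 19.4 TPM). Whether the genes themselves overlap was not checked, and the listed span may be wider than the gene. The phosphate carrier SLC25A3 (chromosome 12, 98987403 to 98995778), which supplies ATP synthase, was the most abundant member at 754 and 751 TPM (-0.01). SLC25A3, SLC25A5, SLC25A6 and SLC25A39 made up 64.6% and 64.0% of the family's TPM.

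The aspartate/glutamate carriers drive the malate-aspartate shuttle, and the glutamate carriers bring glutamate to the matrix. SLC25A13 (citrin, the liver form; chromosome 7, 95749532 to 95951459) gave 73.0 TPM with high and 69.5 TPM with low glucose (-0.07). SLC25A12 (aralar, the form of brain and muscle) was at 0.09 and 0.26 TPM, below the level compared. Nearly all aspartate/glutamate carrier mRNA was thus that of citrin in both libraries. The glutamate carrier SLC25A18 (chromosome 22, 18043183 to 18073647) stood at 5.48 and 10.5 TPM, a log2 difference of 0.82, and its more abundant paralog SLC25A22 at 18.4 and 15.8 TPM (-0.20). SLC25A18 is a low gene, and its difference was 0.56 with a pseudocount of 5, short of 1.5-fold. The noncoding entry LOC101929372 overlaps its interval and stood at 0.61 and 1.67 TPM.

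**Figure D2:**
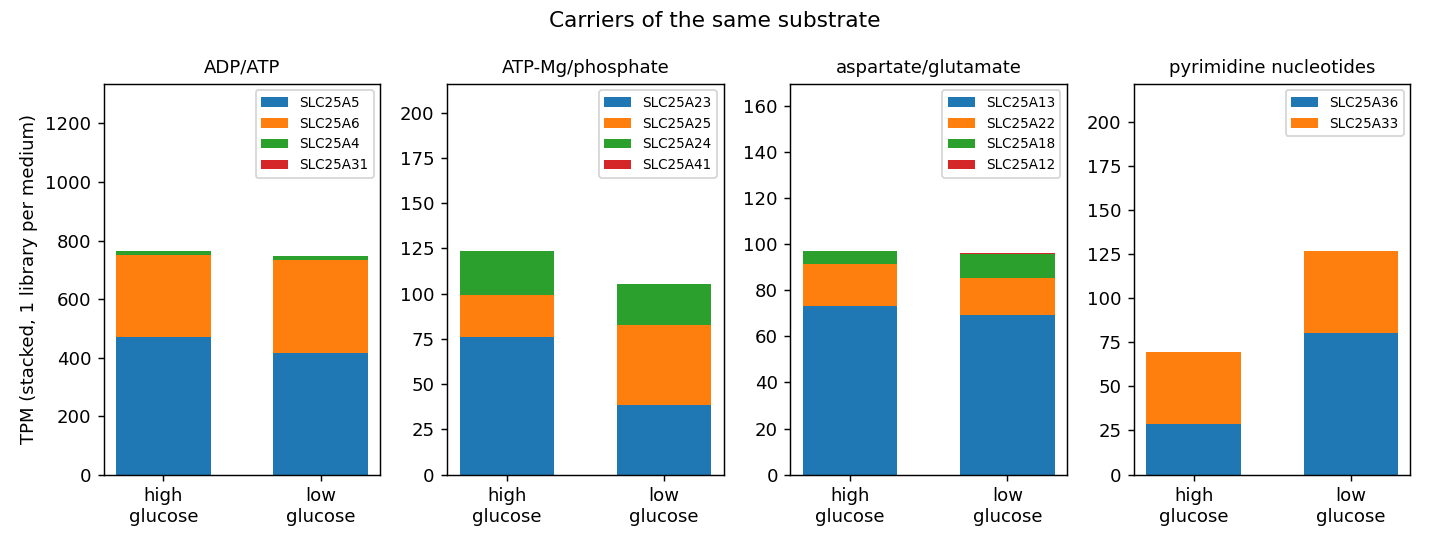
Stacked TPM (vertical, linear from 0; scales differ between panels) of the carriers of 4 substrates in the high and the low glucose library. The sums of ADP/ATP and of aspartate/glutamate and glutamate carriers were nearly level (764 and 749, 97.0 and 96.0 TPM). The shares of SLC25A23 and of SLC25A33 in their groups were smaller with low glucose. In TPM SLC25A23 was lower with low glucose (75.8 and 38.2), whereas SLC25A33 was slightly higher (41.0 and 46.6).

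Carriers of fatty acyl groups and of dicarboxylates lay on the lower side. SLC25A20, the carnitine/acylcarnitine exchanger (chromosome 3, 48894356 to 48936426), gave 86.8 TPM with high and 52.03 TPM with low glucose, a difference of -0.73, with 3.27% of all compared genes lower. Of the carnitine acyltransferases on either side of this step, CPT1A of the outer membrane stood at 3.97 and 7.93 TPM (0.85). The more abundant CPT1B, also of the outer membrane, stood at 13.8 and 20.4 TPM (0.54), and CPT2 of the inner membrane at 26.3 and 16.3 TPM (-0.66). CPT1A, a low gene, was thus at least 1.5-fold higher and CPT1B within 1.5-fold, while SLC25A20 and CPT2 were at least 1.5-fold lower. CPT1A, CPT1B and CPT2 were picked out from a list of partner enzymes after their values were seen. CRAT, a further carnitine acyltransferase of that list, stood at 49.1 and 38.3 TPM (-0.35), within 1.5-fold. SLC25A10, which exchanges malate or succinate for phosphate, stood at 36.9 and 25.8 TPM (-0.50). SLC25A11, the oxoglutarate/malate carrier of the malate-aspartate shuttle, stood at 75.3 and 64.1 TPM (-0.23). The oxodicarboxylate carrier SLC25A21 was below the level compared (0.44 and 0.23 TPM).

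Among carriers of other amino acids, 2 of 4 compared lay above 0 and 2 below. SLC25A29, a carrier of basic amino acids (chromosome 14, 100757448 to 100772884), gave 9.80 TPM with high and 15.9 TPM with low glucose (0.65). Its difference was below 1.5-fold with median-of-ratios scaling and, at 0.50, with a pseudocount of 5. SLC25A38, the glycine carrier that feeds heme synthesis, stood at 53.3 and 63.5 TPM (0.25). SLC25A15, the ornithine carrier of the urea cycle, stood at 39.8 and 34.9 TPM (-0.19), and SLC25A44, a carrier of branched-chain amino acids, at 35.4 and 29.4 TPM (-0.26). These last 3 were within 1.5-fold. SLC25A2, the second ornithine carrier, is 87.6% identical to SLC25A15 in coding bases and was at 0.06 and 0.15 TPM.

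Cofactor carriers held no member past 1.5-fold, with 4 of 9 compared above 0 and 5 below. The glutathione carrier SLC25A39 was the most abundant at 193 and 184 TPM (-0.07), and its paralog SLC25A40 stood at 18.6 and 15.6 TPM (-0.24). SLC25A16, proposed to act in coenzyme A supply, had the largest difference of the group, at 18.1 and 25.2 TPM (0.45). SLC25A42, the coenzyme A carrier, stood at 45.1 and 39.3 TPM (-0.19). SLC25A17, a peroxisomal carrier of cofactors, stood at 37.3 and 36.5 TPM (-0.03). The folate and FAD carrier SLC25A32 stood at 23.3 and 29.1 TPM (0.31); its interval overlaps DCAF13 (68.0 and 58.3 TPM). SLC25A26, the S-adenosylmethionine carrier, stood at 10.3 and 12.1 TPM (0.22), and SLC25A51, the NAD carrier, at 11.5 and 13.1 TPM (0.18). SLC25A52, the close copy of SLC25A51, was listed at 0 in both libraries.

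The iron carriers, the mitoferrins, were slightly higher in low glucose and within 1.5-fold. SLC25A37 (mitoferrin 1) stood at 22.1 and 29.5 TPM (0.40) and SLC25A28 (mitoferrin 2) at 21.6 and 27.2 TPM (0.32). Carriers related to uncoupling proteins were low, with SLC25A14 at 10.1 and 10.1 TPM (-0.01), SLC25A27 at 6.89 and 8.69 TPM (0.30) and SLC25A30 at 6.20 and 7.03 TPM (0.16). SLC25A46, an outer membrane protein of mitochondrial dynamics, was level at 23.1 TPM in both. Members whose substrate is unassigned or not settled were also low. SLC25A43 stood at 13.2 and 10.3 TPM (-0.33), SLC25A45 at 4.25 and 5.98 TPM (0.41), SLC25A35 at 2.01 and 2.32 TPM (0.14) and SLC25A34 at 1.80 and 2.28 TPM (0.23).

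The 9 members below the level compared ranged from 0 to 0.44 TPM in either library. They were SLC25A2, SLC25A12, SLC25A21, SLC25A31, SLC25A41, SLC25A47, SLC25A48, SLC25A52 and SLC25A53. SLC25A47, a carrier known for its restriction to liver, was at 0.15 and 0.06 TPM in these hepatoma cells. No fold is given for these members.

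**Figure D3:**
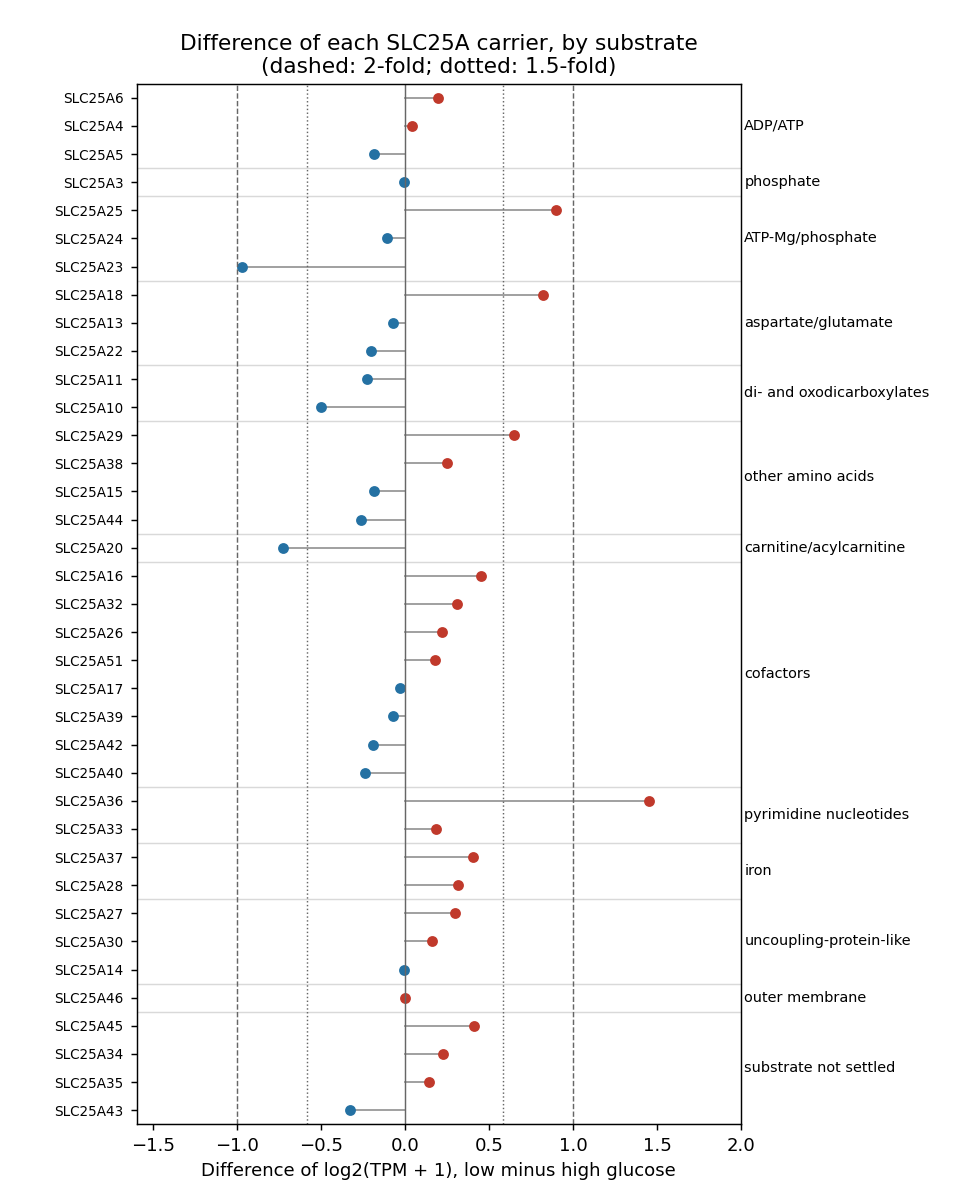
Horizontal axis: log2(TPM + 1) with low glucose minus that with high glucose, of 37 of the 38 compared SLC25A carriers, grouped by substrate and coloured by sign, with dashed lines at 2-fold and dotted lines at 1.5-fold. SLC25A36 (1.45) is the only point beyond a dashed line. Most groups with several points, those of ATP-Mg/phosphate and of glutamate carriers among them, hold points on either side of 0.

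The coding sequences of the members varied in length and in the number of signature matches. Coding sequences ran from 274 to 678 codons with a median of 314, the longest being the aspartate/glutamate carriers SLC25A12 and SLC25A13. Counted anywhere in the coding sequence in frame, the signature occurred 3 times in 26 of the 47 members and at least once in 43. The 4 members with none were SLC25A46, SLC25A51, SLC25A52 and SLC25A53. SLC25A36 held 1 match and SLC25A33 held 2, while SLC25A23 held 4 and SLC25A25 held 2. A match can also lie outside the carrier repeats.

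Promoters, 250 bases before to 50 after the RefSeq start on GRCh38.p14, were found for 39 of the 47 members and searched on both strands. The E-box CACGTG occurred in 8 of the 39 (20.5%), against 7.27% of 27305 promoters of all genes. The ETS motif CCGGAAG occurred in 8 (20.5%), against 10.6% of all. The NRF1 motif, GCGCA and GCGC separated by 1 base, occurred in 5 (12.8%), against 6.05%. The element TGATGCAA, bound by heterodimers of C/EBP and ATF proteins, occurred in 0 of 39, against 0.923% of all. These are shares of letters with no test, and a match does not show a bound site. The promoters of all genes were not matched to those of the members in base composition or gene type. The part of either in these shares was not tested.

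The promoters of both pyrimidine carriers held the E-box, and both also held TGACGTCA, the cyclic AMP response element. That element was searched after the sequence of SLC25A36 had been read, and it occurred in 2 of the 39 member promoters (5.13%), these 2, and in 1.94% of all promoters. The E-box and this element share the letters ACGT but do not overlap in either promoter. The promoters of SLC25A25 (higher) and SLC25A20 (lower) each held the ETS motif, and that of SLC25A23 held none of the 5 motifs. Matches are in capitals, and each sequence is written along the strand of its gene. SLC25A36 lies at chr3:140941586-140941885 (plus strand), with the E-box starting 143 and the response element 117 bases before the start. SLC25A33 lies at chr1:9539215-9539514 (plus strand), with the response element 49 and the E-box 26 bases before it. SLC25A25 lies at chr9:128067982-128068281 (plus strand) and SLC25A20 at chr3:48898833-48899132 (minus strand).
SLC25A36: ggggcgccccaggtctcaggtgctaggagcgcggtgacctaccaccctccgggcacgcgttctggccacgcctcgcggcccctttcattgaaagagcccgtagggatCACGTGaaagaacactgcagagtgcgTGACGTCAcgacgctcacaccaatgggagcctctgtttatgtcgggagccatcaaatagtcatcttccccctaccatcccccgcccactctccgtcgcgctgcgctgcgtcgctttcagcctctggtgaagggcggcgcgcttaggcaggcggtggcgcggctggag
SLC25A33: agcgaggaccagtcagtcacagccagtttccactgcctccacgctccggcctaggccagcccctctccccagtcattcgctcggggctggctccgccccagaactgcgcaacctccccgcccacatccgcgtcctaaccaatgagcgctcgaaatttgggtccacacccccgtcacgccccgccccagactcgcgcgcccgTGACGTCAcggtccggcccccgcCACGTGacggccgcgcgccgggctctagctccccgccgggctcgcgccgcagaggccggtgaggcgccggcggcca
SLC25A25: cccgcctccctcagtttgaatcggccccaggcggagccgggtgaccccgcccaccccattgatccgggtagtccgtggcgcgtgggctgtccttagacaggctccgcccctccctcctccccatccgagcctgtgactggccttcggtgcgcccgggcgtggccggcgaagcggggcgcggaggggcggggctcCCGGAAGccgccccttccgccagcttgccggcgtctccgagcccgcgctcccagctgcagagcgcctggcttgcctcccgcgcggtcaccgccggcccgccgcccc
SLC25A20: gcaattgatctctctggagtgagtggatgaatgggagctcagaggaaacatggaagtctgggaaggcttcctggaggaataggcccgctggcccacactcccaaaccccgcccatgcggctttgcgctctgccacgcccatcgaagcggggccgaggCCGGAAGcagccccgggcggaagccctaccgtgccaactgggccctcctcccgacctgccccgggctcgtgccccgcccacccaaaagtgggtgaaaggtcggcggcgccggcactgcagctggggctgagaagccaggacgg

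Genes that work beside the carriers were taken from 4 lists with 48 compared genes. Of these 31 (64.6%) lay below 0, beside 45.3% of all genes compared and 50.9% of those with a mean of at least 10 TPM. At least 2-fold higher were 0 of 48 and lower 1 (2.08%), beside 3.65% and 1.10% of all genes. At 1.5-fold 2 (4.17%) were higher and 5 (10.4%) lower, beside 13.0% and 6.07%. Their median difference was -0.26, beside 0.02 for the SLC25A members and 0.05 for all genes. With 1 library per medium these values have no replicate error, and whether the lists differ from all genes was not tested. Family members under other symbols numbered 4 compared, none past 1.5-fold, with a median of -0.31. Of these MTCH2, an outer membrane insertase, stood at 114 and 90.4 TPM (-0.33) and MTCH1 at 98.8 and 81.4 TPM (-0.28). Other mitochondrial transport genes had a median of -0.18, with 2 of 15 (13.3%) at least 1.5-fold lower and 0 higher. The outer membrane channel genes VDAC1 (361 and 247 TPM, -0.55) and VDAC3 (249 and 163 TPM, -0.60) were the most abundant. The 2 past 1.5-fold were VDAC3 and MPC2, a subunit of the pyruvate carrier (197 and 121 TPM, -0.70), the latter named after its values were seen.

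The import and insertion machinery that places carriers in the inner membrane held 0 of 11 genes past 1.5-fold, with a median of -0.22. Of all genes compared, 13.0% were at least 1.5-fold higher and 6.07% lower. TIMM10, a chaperone of the intermembrane space, stood at 219.5 and 242 TPM (0.14), and TOMM40, the import pore, at 255 and 193 TPM (-0.40). Partner enzymes, which make or use the carried substrates, had a median of -0.38 over 18 genes. Of these 1 (5.56%) was at least 2-fold lower and 0 higher, beside 1.10% and 3.65% of all genes. At 1.5-fold 3 (16.7%) were lower and 2 (11.1%) higher, beside 6.07% and 13.0%. The 1 past 2-fold was OTC, the urea cycle enzyme that uses ornithine in the matrix. OTC is a low gene, at 9.80 and 2.85 TPM (-1.49), while its ornithine carrier SLC25A15 was within 1.5-fold. SHMT2, which makes glycine in mitochondria, stood at 247 and 382 TPM (0.63), and MDH1 of the malate-aspartate shuttle at 304 and 211 TPM (-0.52). The other enzymes of that shuttle were GOT1 (-0.09), GOT2 (-0.56) and MDH2 (-0.23), beside its carriers SLC25A13 (-0.07) and SLC25A11 (-0.23).

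**Figure D4:**
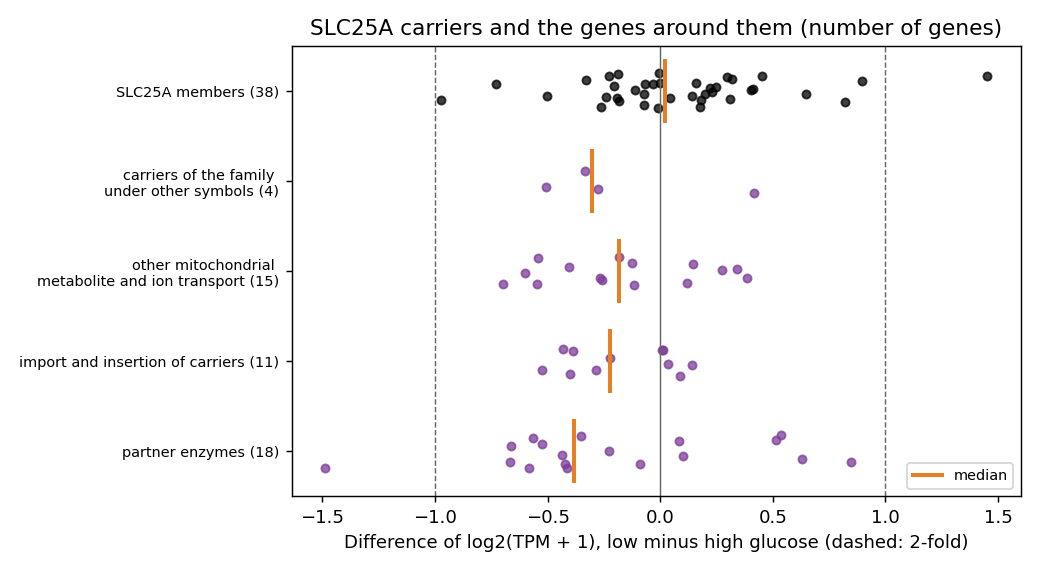
Horizontal axis: log2(TPM + 1) with low glucose minus that with high glucose, for the 38 SLC25A carriers and for 4 lists of related genes, 1 point per gene, with the median as an orange bar and dashed lines at 2-fold. The median of the carriers (0.02) lies near 0, and those of the 4 lists lie between -0.38 and -0.18.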

How the data were processed

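RNA of Huh7 cells was sequenced as 1 Illumina library per medium, per the labels' protocols. The deposited values are TPM per gene, per the file headers, with 2 decimals. The submitters' processing notes name cutadapt, RSEM 1.2.21 (which divides reads shared by several genes between them) and hg19. Aligner, annotation and strand handling: not given in the sources used here. Because every library has the same total, a rise of abundant genes lowers the TPM of the rest. The sequencing depth is unknown.

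Samples were grouped by their treatment label. Differences of log2(TPM + 1) were computed for genes with a mean of at least 1 TPM and called at 2-fold, with 1.5-fold as a second rule. No test was made. Every compared member but 1 was named, as were the 2 most abundant genes of each related list and those past 2-fold. The members, lists and rules were chosen with earlier results of these data known. Alternatives were 3 scalings, pseudocounts of 0.1 and 5, no filter on level and a mean of at least 10 TPM. The calling step was tested on simulated data. A planned search of protein sequences was run on coding sequences of GENCODE release 29 instead, with 1 transcript per member, preferring principal forms and then length. Coding sequences were aligned with Biopython 1.88, and promoters came from RefSeq. Coordinates of genes are the hg19 intervals of the files. Of the 48 entries 1 was left out and 1 enters the counts only, and their own values are not reported here. Python 3.11.15 and pandas 2.3.3 were used.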

Additional observations from a re-analysis of the deposited data

How the results depend on the processing

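Of the 38 compared members, 34 kept the sign of their difference under the 3 scalings and 2 pseudocounts tried. The 4 that did not were SLC25A3, SLC25A4, SLC25A14 and SLC25A46, all within 0.1 of 0. The scalings shifted the median of all genes by -0.08 to 0.03. SLC25A36 was the only member 2-fold higher in each alternative tried, beside 1.70% to 5.41% of all genes. The number 2-fold lower was 0, and 1 (SLC25A23) with median-of-ratios or upper-quartile scaling, beside 1.47% and 1.30% of all genes. The number 1.5-fold higher was 4 as reported. It became 3 with median-of-ratios scaling and among members of at least 10 TPM, beside 10.2% and 10.9% of all genes. With a pseudocount of 5 it became 2, beside 6.99%. The number 1.5-fold lower was 2, and 3 with median-of-ratios scaling, where SLC25A10 (-0.59) was added, beside 8.91% of all genes. As reported, the shares of all genes were 1.10% for 2-fold lower, 13.0% for 1.5-fold higher and 6.07% for 1.5-fold lower. The median of the members was 0.02, and became -0.0616 with median-of-ratios scaling, -0.0201 with upper-quartile scaling and -0.0189 among members of at least 10 TPM. No paired analysis was possible because each medium has 1 library, and no library could be left out for the same reason. Differences of members below about 10 TPM rest on an unknown number of reads.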

Other observations

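Some entries that are no members overlap the listed interval of a carrier. Beside DCAF13 and ASMTL, those with at least 10 TPM in both libraries were RANGRF (36.6 and 41.5 TPM; SLC25A35 at 2.01 and 2.32), DBF4 (37.98 and 33.9 TPM; SLC25A40 at 18.6 and 15.6) and LOC286437 (16.3 and 23.2 TPM, at SLC25A53). SNORA53, a small nucleolar RNA entry inside the interval of SLC25A3, was listed at 0 in high and at 5.66 TPM in low glucose, while SLC25A3 itself stood at 754 and 751 TPM. The antisense entry SLC25A21-AS1 stood at 1.13 and 1.53 TPM, above SLC25A21 (0.44 and 0.23 TPM), and SLC25A5-AS1 at 0.64 and 0.56 TPM. These entries were chosen after their values were seen.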
